A study of Mus musculus with 2 samples.

Results

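The miR-15/16 family is a group of microRNAs that share the start of their mature sequence, and 8 mouse genes carry it here: Mir15a and Mir16-1, Mir15b and Mir16-2, Mir497 and Mir195a, and Mir322 and Mir503. They were picked by gene name in the GENCODE M21 annotation, and 8 of the 2202 miRNA genes in the tables matched. The family was measured by microRNA-seq in the adrenal gland of females of the 5xFAD/CAST strain, which were adults at 8 to 10 months of age. There was 1 group, sequenced as 2 libraries that the labels name biological replicates 2 and 1. 5xFAD is a transgenic model of Alzheimer's disease and CAST an inbred strain derived from Mus musculus castaneus. The labels do not say whether the sampled animals carried the transgene. The libraries have separate biosamples but the same donor identifier, so a difference between them may be technical. A p-value of Fisher's exact test below sets such a difference against counting error only and measures no spread between animals.

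Mature microRNAs guide Argonaute proteins to messenger RNAs, mainly by pairing of the seed, bases 2 to 8 counted from the 5′ end. The miR-15/16 family is known for restraining the G1 phase of the cell cycle, with D-type and E-type cyclins and Cdk6 among its targets, and for repressing the survival factor Bcl2. The members are made in pairs from shared primary transcripts, and mouse miR-322 is the counterpart of human miR-424.

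The mature guide strands are printed to show how far the members are alike, with the seed in capitals, from the RefSeq table for GRCm38.p6, in which all 8 genes were found.
miR-15a-5p: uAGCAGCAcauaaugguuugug
miR-15b-5p: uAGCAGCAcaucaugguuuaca
miR-16-5p: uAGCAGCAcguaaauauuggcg
miR-195a-5p: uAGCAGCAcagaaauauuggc
miR-497a-5p: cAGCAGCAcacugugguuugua
miR-322-5p: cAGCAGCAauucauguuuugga
miR-503-5p: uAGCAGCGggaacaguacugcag

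The seed AGCAGCA was shared by 7 of the 8 genes. Mir503 differed from it by A8G, with positions counted from 1 at the 5′ end of the mature miRNA, so that the 8 genes hold 2 seeds at this length. Outside the seed the sequences split differently from the genomic pairs. When aligned from the 5′ end, miR-16-5p and miR-195a-5p, which come from different loci, had the same base at 19 of 21 positions, with G10A and U11G between them. miR-15a-5p and miR-15b-5p matched at 18 of 22 positions. Partners of one transcript were less alike than both of these pairs. Of the partners, miR-15a-5p and miR-16-5p matched at 16 of 22 positions, and miR-15b-5p and miR-16-5p at 14 of 22. The counts were 12 of 21 for miR-497a-5p and miR-195a-5p, and 11 of 22 for miR-322-5p and miR-503-5p. Other pairs from different loci were as unlike, down to 10 of 22 for miR-497a-5p and miR-503-5p. All these counts include the seed positions.

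A mature miR-16-5p of this sequence is made from both Mir16-1 and Mir16-2. The hairpins are printed with the longest stretch that they share in capitals.
Mir16-1: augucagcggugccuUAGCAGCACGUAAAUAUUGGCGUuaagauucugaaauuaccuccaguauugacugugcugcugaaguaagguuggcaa
Mir16-2: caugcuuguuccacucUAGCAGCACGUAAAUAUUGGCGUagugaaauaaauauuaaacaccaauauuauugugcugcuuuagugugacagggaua

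The shared 23 bases hold the whole of miR-16-5p. Reads with several genomic matches stand in an entry of their own and count for no gene in these tables. Reads that lie within that stretch are therefore missing from both genes, and the Mir16-1 and Mir16-2 values below are minimum values of uncertain size. Their 3p strands differ and can be told apart.
miR-16-1-3p: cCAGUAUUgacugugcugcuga
miR-16-2-3p: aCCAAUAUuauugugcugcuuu

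In both of these lines the capitals mark the seed. The longest stretch that any of the remaining members shared with another annotated miRNA gene was 16 bases, between Mir195a and Mir195b, and for Mir15a, Mir15b, Mir497, Mir322 and Mir503 it was 12 or 13 bases. Only annotated miRNA genes were searched. The seed AGCAGCA is also carried by 4 further mouse genes in RefSeq, namely Mir195b, Mir6342, Mir6353 and Mir6419, and all 4 had 0 reads in both libraries, which allows up to 0.433 counts per 1e+06 miRNA reads (CPM) in replicate 2 and 0.825 CPM in replicate 1, taking 3 counts as the limit of a count of 0.

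The 4 loci lie on 4 chromosomes (mm10, GENCODE M21). Mir15a (chr14:61632027-61632110, minus strand) lies in an intron of the noncoding gene Dleu2, and Mir16-1 (chr14:61631880-61631972, minus strand) overlaps an exon of a Dleu2 transcript. Mir15b (chr3:69009772-69009835) and Mir16-2 (chr3:69009902-69009996) lie on the plus strand in an intron of Smc4, which encodes a condensin subunit. Mir497 (chr11:70234717-70234800) and Mir195a (chr11:70235042-70235135) are on the plus strand, and Mir497 is overlapped over all of its 84 bases by Mir497b on the opposite strand. Mir322 (chrX:53054255-53054349) and Mir503 (chrX:53053984-53054054) are on the minus strand, within the long noncoding RNA C430049B03Rik of RefSeq. The bases between the hairpins of a pair number 54 for Mir15a and Mir16-1, 66 for Mir15b and Mir16-2, 241 for Mir497 and Mir195a, and 200 for Mir322 and Mir503.

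The libraries differed in depth, with 6924829 reads on miRNA genes in replicate 2 and 3635851 in replicate 1. CPM was computed over miRNA genes from the column of reads of one strand, the strand column, and not divided by gene length, since a read covers a whole mature miRNA. Counts were given per hairpin, so that the arms of a hairpin were not separated, and differences in ligation between miRNAs affect any comparison of levels between genes. The labelled tissue was checked against marker miRNAs: Mir375, abundant in the neuroendocrine cells of the adrenal medulla, had 43996 CPM in replicate 2 and 46454 CPM in replicate 1, and Mir206, a miRNA of skeletal muscle, had 0.866 CPM in replicate 2 and 2.75 CPM in replicate 1, from 6 and 10 reads. Reads amplified by PCR and not tagged with molecular identifiers do not stand for separate molecules, so intervals and limits cover counting error only.

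All 8 family genes were detected, which means at least 10 reads in each library, a level that 356 of the 2202 genes reached. Together they had 84952 reads in replicate 2 and 53335 reads in replicate 1. This was 1.23% of miRNA reads in replicate 2 (95% interval by the exact Clopper-Pearson method, 1.22 to 1.24%) and 1.47% in replicate 1 (1.45 to 1.48%), with a mean of 1.35% ± 0.170 (SD, n = 2). Mir322 alone supplied most of these counted reads, 75.6% of the family in replicate 2 (75.3 to 75.9%) and 75.4% in replicate 1 (75.0 to 75.7%). The intervals of the Mir322 share overlap, whereas those of the family share do not. These totals hold uniquely placed reads: the miR-16-5p reads of Mir16-1 and Mir16-2 stand among 5165270 multimapping reads in replicate 2 and 2454066 in replicate 1 and their number is unknown, so the family's read count is a lower limit and the Mir322 share of the family an upper one.

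Mir322 had 9273 CPM in replicate 2 and 11053 CPM in replicate 1, a mean of 10163 ± 1259 CPM (SD, n = 2) and rank 23 of 2202 genes by mean. Mir15a came next in the family with 819 CPM in replicate 2 and 1661 CPM in replicate 1 (mean 1240 ± 596 CPM, SD, n = 2). The Mir322 level was above that of Mir15a in both libraries, 11.3 times as high in replicate 2 and 6.65 times in replicate 1. Mir195a had 732 CPM in replicate 2 and 531 CPM in replicate 1 (mean 631 ± 142 CPM), and its highest value was below the lowest of Mir15a.

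Mir15b had 576 CPM in replicate 2 and 344 CPM in replicate 1 (mean 460 ± 164 CPM, SD, n = 2). Mir497 had 241 CPM in replicate 2 and 539 CPM in replicate 1 (mean 390 ± 211 CPM). Mir16-1 had 369 CPM in replicate 2 and 320 CPM in replicate 1 (mean 344 ± 34.0 CPM). The ranges of Mir195a and Mir15b, of Mir15b and Mir497, and of Mir497 and Mir16-1 overlapped. Within each library, however, Mir195a was above Mir15b, 1.27 times as high in replicate 2 and 1.55 times in replicate 1. The order of Mir15b and Mir497, and that of Mir497 and Mir16-1, changed between the libraries and is not settled.

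Mir16-2 and Mir503 were the lowest members. Mir16-2 had 120 CPM in replicate 2 and 122 CPM in replicate 1 (mean 121 ± 1.61 CPM, SD, n = 2), with 828 and 443 reads in these libraries. Mir503 had 140 CPM in replicate 2 and 98.5 CPM in replicate 1 (mean 119 ± 29.6 CPM), with 972 and 358 reads. Their ranges overlapped, and both lay below Mir16-1 in each library. In this order Mir16-1 and Mir16-2 stand at their minimum values.

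**Figure D1:**
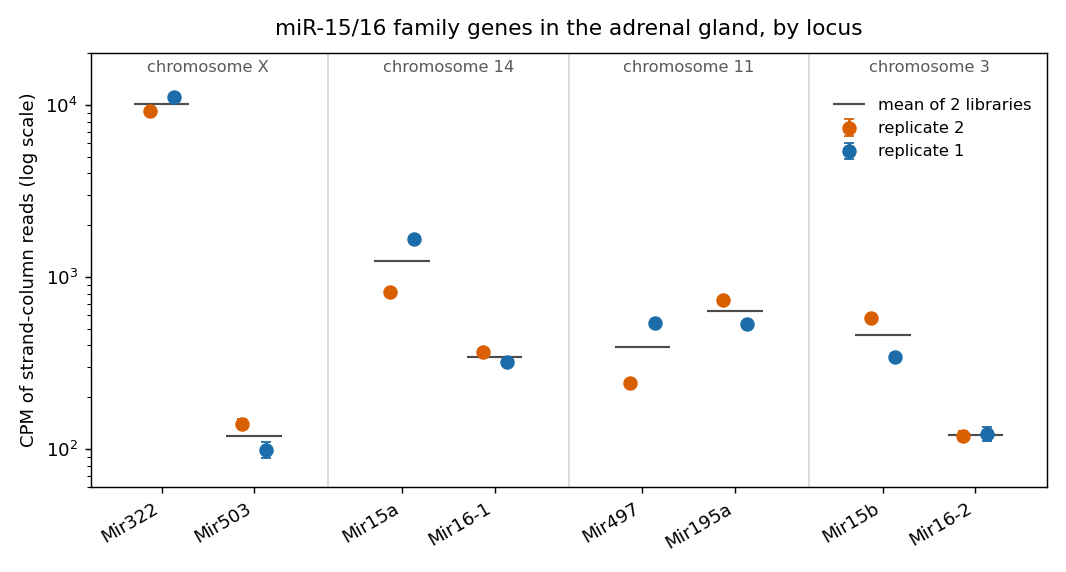
CPM of the 8 family genes on a log scale, grouped by locus, with a point and exact 95% counting interval for each library and a line for the mean of the 2 libraries. Mir322 lies near 10163 CPM and the other genes between 98.5 and 1661 CPM.

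Summed by locus over uniquely placed reads, the Mir322 and Mir503 pair on chromosome X had 9413 CPM in replicate 2 and 11152 CPM in replicate 1, which was 76.7% of the family's reads in replicate 2 and 76.0% in replicate 1. The Mir15a and Mir16-1 pair in Dleu2 had 1187 CPM in replicate 2 and 1981 CPM in replicate 1 (9.68% and 13.5% of the family in these libraries). The Mir497 and Mir195a pair had 972 CPM in replicate 2 and 1070 CPM in replicate 1. The Mir15b and Mir16-2 pair in Smc4 had 695 CPM in replicate 2 and 466 CPM in replicate 1. These counted reads gave the same order of the 4 loci in both libraries, but the Dleu2 and Smc4 sums lack miR-16-5p and are lower limits, so their place beside the other loci is not settled.

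The partners of a pair come from one transcript and one library, so the share of a partner in its pair needs no scaling by depth. By counted reads, partners were unequal at 3 loci in both libraries. Mir322 made up 98.5% of its pair with Mir503 in replicate 2 (98.4 to 98.6%) and 99.1% in replicate 1 (99.0 to 99.2%), a ratio to Mir503 of 66.1 in replicate 2 and 112 in replicate 1. Mir15b made up 82.8% of its pair with Mir16-2 in replicate 2 (81.7 to 83.9%) and 73.8% in replicate 1 (71.7 to 75.9%). Mir15a made up 69.0% of its pair with Mir16-1 in replicate 2 (67.9 to 70.0%) and 83.8% in replicate 1 (83.0 to 84.7%). In both of the last pairs the smaller partner is a miR-16 gene, whose count is a minimum, so these shares of Mir15b and Mir15a are upper limits.

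The chromosome 11 pair was unequal in replicate 2 alone. Mir497 made up 24.7% of its pair with Mir195a in replicate 2 (23.7 to 25.8%) and 50.4% in replicate 1 (48.8 to 51.9%), a Mir497 to Mir195a ratio of 0.329 in replicate 2 and 1.01 in replicate 1. Mir195a was thus well above Mir497 in replicate 2, and the partners were near equal in replicate 1.

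**Figure D2:**
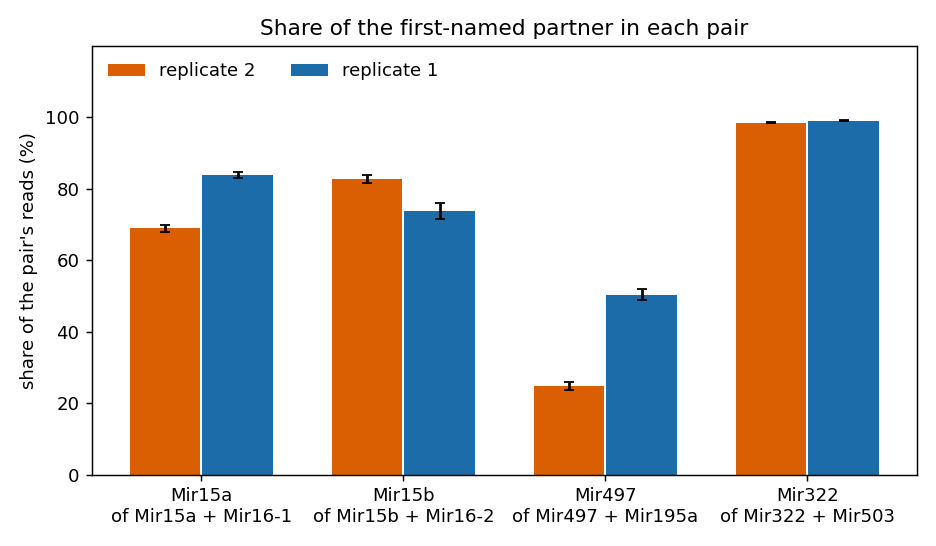
Share of the first-named partner among the reads of each pair, in percent, for replicate 2 and replicate 1, with exact 95% intervals. Mir497 moves most between the libraries, at 24.7% in replicate 2 and 50.4% in replicate 1, and Mir322 stays above 98% of its pair.

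Each of the 4 shares differed between the libraries by more than counting error (two-sided Fisher's exact test with Benjamini-Hochberg adjustment over 119 pairs of neighbouring same-strand miRNA genes within 10 kb). The difference of replicate 2 minus replicate 1 was -25.6 percentage points for Mir497 (adjusted p = 5.53e-155), -14.9 points for Mir15a (4.09e-104), 8.97 points for Mir15b (2.24e-14) and -0.61 points for Mir322 (5.26e-18). Such differences were common, and 58.8% of the 119 pairs passed the same test. So did 80.9% of the 47 pairs with at least 1000 reads of each gene in both libraries together. Every family gene reached this summed depth. The absolute log2 odds ratio between the libraries was 1.62 for the Mir497 pair, 1.22 for the Mir15a pair, 0.77 for the Mir15b pair and 0.76 for the Mir322 pair. Over all 119 pairs its median was 0.52 and its upper quartile 0.91. Of the 47 deeper pairs, 17 had an odds ratio at least as large as that of the Mir322 pair. For the Mir15a and Mir15b pairs, the differences and odds ratios cover uniquely placed reads only. The partners in these pairs lack the reads of their shared stretch, so size and sign with those reads included are unknown.

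Replicate 2 was then compared with replicate 1 gene by gene. The test compares these libraries, not conditions, and allows for counting error only. By a two-sided Fisher's exact test with Benjamini-Hochberg adjustment over 455 genes, 7 of the 8 members differed at an adjusted p under 0.05, against 52.5% of all genes tested and 83.6% of the 177 genes with at least 1000 reads in both libraries together. Among all genes 77 were higher in replicate 2 and 162 lower, and this split depended on the scaling. It was 112 higher and 125 lower with TMM, and 118 higher and 121 lower with DESeq2 size factors, which moved all log2 ratios by 0.14 and 0.17.

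The members moved in both directions, 4 higher and 3 lower in replicate 2, and this count was the same under both scalings. Mir15b was higher in replicate 2 with a log2 ratio of 0.74 (95% interval 0.65 to 0.84, adjusted p = 1.14e-60). Mir503 had a log2 ratio of 0.51 (0.34 to 0.69), Mir195a of 0.46 (0.39 to 0.54) and Mir16-1 of 0.20 (0.10 to 0.30). Mir497 was lower in replicate 2 with a log2 ratio of -1.16 (-1.26 to -1.07, adjusted p = 9.98e-128), and Mir15a likewise with -1.02 (-1.07 to -0.97, adjusted p = 2.66e-315). Mir322 had a log2 ratio of -0.25 (-0.27 to -0.24). The small ratios depended most on the scaling: that of Mir322 was -0.11 with TMM and -0.08 with DESeq2 size factors, and that of Mir16-1 was 0.35 and 0.37 under these scalings. Mir16-2 did not pass the test, with a log2 ratio of -0.03 (-0.20 to 0.14, adjusted p = 0.828). By uniquely placed reads, partners were called in opposite directions at 3 of the 4 loci. The Mir15b and Mir16-2 pair was the exception. The Mir16-1 and Mir16-2 ratios leave out reads of their shared stretch, so their size and direction with those reads are unknown. The opposite calls of Mir15a and Mir16-1, and the exception, therefore hold for the counted reads only. Opposite calls were made in 21.8% of the 119 neighbouring pairs and in 36.2% of the 47 deeper pairs.

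When the spread over all genes was added to the counting error, no member passed the test. edgeR's exact test with the common dispersion, a biological coefficient of variation of 32.2%, called 0 of the 8 members, and 0 had an unadjusted p under 0.05. This dispersion was estimated over all genes from the same 2 libraries, taken as replicates. The test can therefore call only genes that differ far more than most, and few calls were built into it. A member that it did not call is not shown to be equal in the libraries. It called 3 of 455 genes, or 0.659%, with 23 at an unadjusted p under 0.05. The lowest unadjusted p among the members was 0.0849 for Mir497, followed by 0.129 for Mir15a, and every adjusted p was 1. The median absolute log2 ratio was 0.49 over the 8 members, 0.47 over all 455 genes and 0.33 over the 177 deeper genes. An absolute log2 ratio above 1 occurred in 2 members, Mir15a and Mir497, in 15.8% of all genes tested and in 10.2% of the 177 deeper genes.

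**Figure D3:**
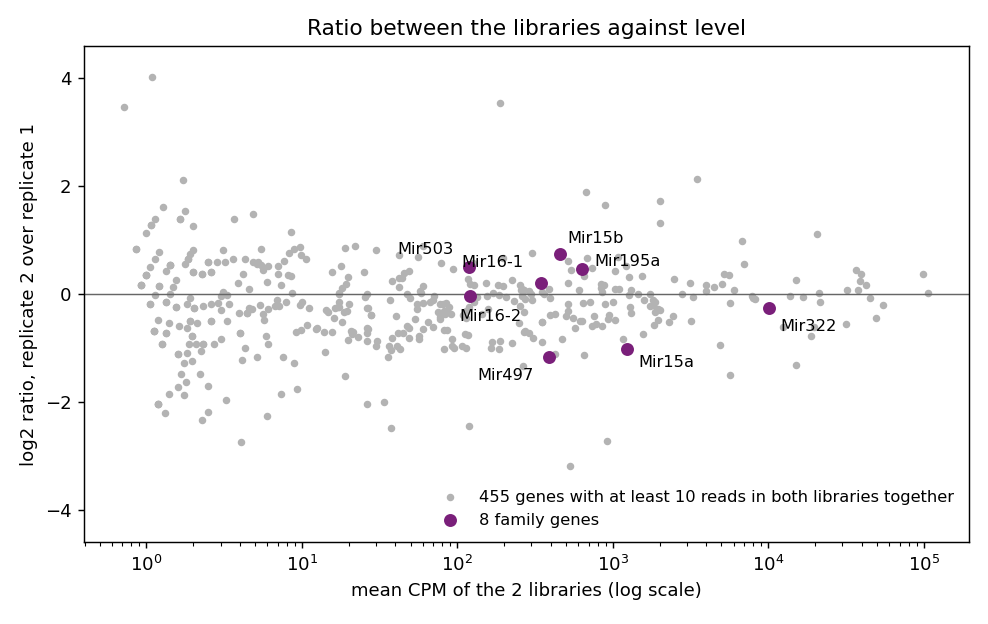
Log2 ratio of replicate 2 over replicate 1 against the mean CPM (log scale) for 455 genes in gray and the 8 family genes in purple. The family genes lie on both sides of 0, between -1.16 for Mir497 and 0.74 for Mir15b, within the cloud of the other genes.

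The choice of count column decides whether Mir497 is seen at all. The tables hold 3 unnamed count columns, read from their values as reads of both strands, reads of one strand (used here and called the strand column) and reads of the other strand. Mir497 had 1666 reads in replicate 2 and 1960 reads in replicate 1 in the strand column, and 0 in both libraries in the both-strand column. The overlapping Mir497b had 0 reads in the strand column and, in the column of the other strand, the same 1666 and 1960 reads as Mir497. The same reads thus stand under 2 gene names, and in the both-strand column they are missing from each. That they belong to Mir497 rests on the strand column being the strand of the gene; in it the other 7 members kept their both-strand counts to within 2 reads, while in the opposite column 7 of the 8 members, Mir497 included, had 0 reads and Mir322 had 1 read in replicate 2 and 2 in replicate 1.

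**Figure D4:**
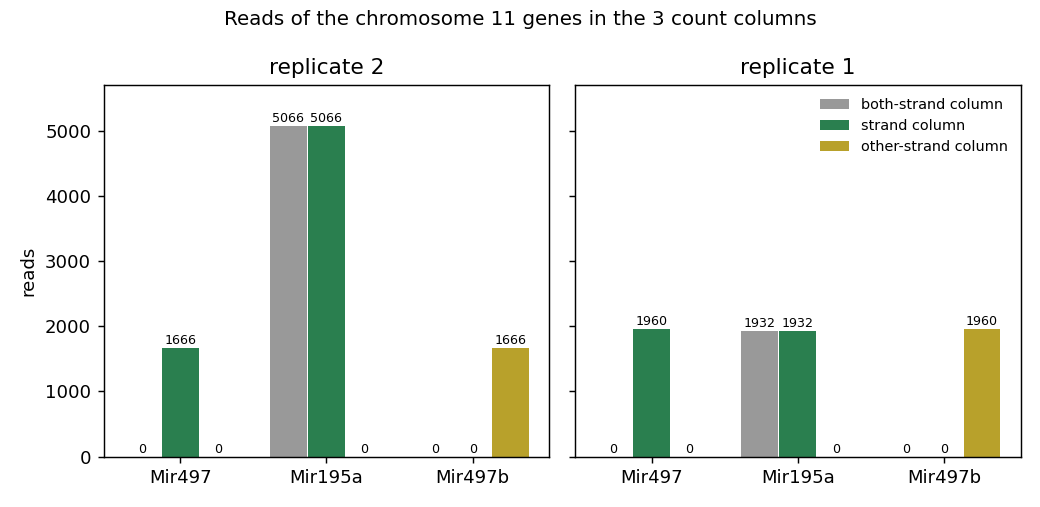
Reads of Mir497, Mir195a and Mir497b in the 3 count columns, with replicate 2 on the left and replicate 1 on the right. Mir195a has the same count in the both-strand and the strand column, whereas the 1666 and 1960 reads of Mir497 are present in the strand column only and appear under Mir497b in the column of the other strand.

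Mir322 and Mir503 are the first genes of an X-linked miRNA cluster, followed on the same strand by Mir351, Mir542, Mir450-2, Mir450-1 and Mir450b within 6271 bases of the 5′ end of the Mir322 hairpin. Mir322 held 81.7% of the cluster's reads in replicate 2 and 80.4% in replicate 1. Mir351, which starts 996 bases downstream and belongs to the miR-125 family by its seed, was second with 1639 CPM in replicate 2 and 2272 CPM in replicate 1. Mir503, although it lies between them, had 1.24% of the cluster's reads in replicate 2 and 0.716% in replicate 1. The levels did not follow the order of the genes along the cluster.

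Mir542 had 258 CPM in replicate 2 and 262 CPM in replicate 1, above Mir503 in both libraries. Mir450b had 27.9 CPM in replicate 2 and 48.7 CPM in replicate 1. Mir450-2 had 7.94 CPM in replicate 2 and 6.05 CPM in replicate 1, and Mir450-1 had 3.03 CPM in replicate 2 and 4.95 CPM in replicate 1. These last genes share a stretch of 25 bases, so their counts are minimum values too. Between the libraries 1 gene of the cluster was called higher in replicate 2 (Mir503), 3 were called lower (Mir322, Mir351 and Mir450b) and 3 were not called by Fisher's exact test, so 4 of 7 were called against 52.5% of all genes tested. With DESeq2 size factors 2 were higher and 3 lower, and edgeR's exact test called 0.

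**Figure D5:**
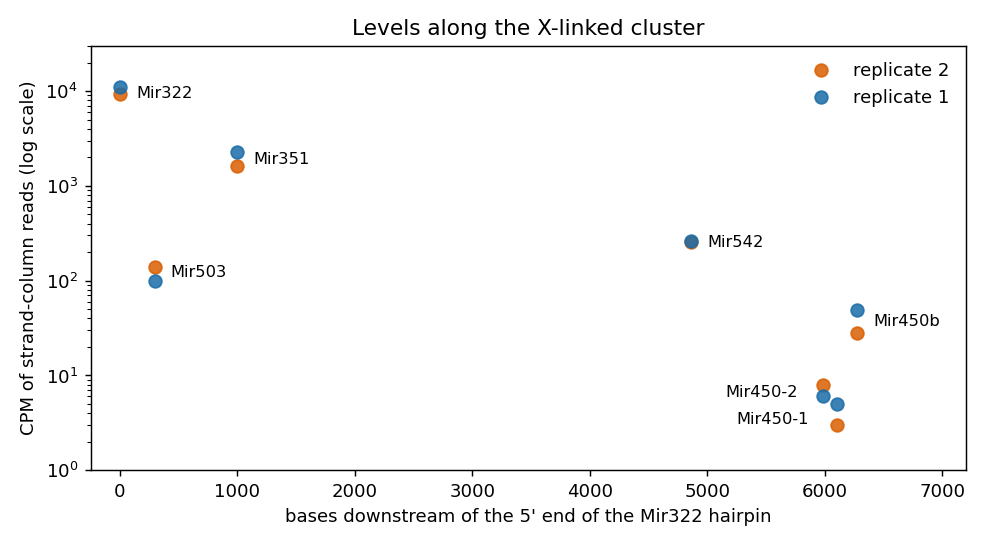
CPM on a log scale of the 7 genes of the X-linked cluster, by distance in bases downstream of the 5′ end of the Mir322 hairpin, for each library. Mir503, at 295 bases, lies below both Mir322 and Mir351 in each library.

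By summed absolute difference in log2(CPM + 1) over the 2 libraries, the gene nearest in level was found among 355 detected genes for the more abundant partner of each locus. With 2 libraries this is a likeness of level only. It was Mir484 for Mir15a (0.20, with 844 CPM in replicate 2 and 1494 CPM in replicate 1), Mir672 for Mir195a (0.13, 735 CPM and 580 CPM), Mir598 for Mir15b (0.37, 624 CPM and 409 CPM) and Mir29a for Mir322 (0.53, 9859 CPM and 15047 CPM).

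Other miRNAs known for effects on proliferation put the family's level in context. The growth-restraining list of let-7, miR-26 and miR-34 genes had 13 of 13 members detected, with a summed level of 351966 CPM in replicate 2 and 307212 CPM in replicate 1. It holds a part of these families: Mirlet7a-2, Mirlet7c-2, Mirlet7f-2 and Mir26a-2, among others, were detected but are not in the list. The miR-15/16 family had 12268 CPM in replicate 2 and 14669 CPM in replicate 1. A mature miRNA that another gene in RefSeq also makes belongs to 4 growth-restraining genes and 2 genes of the family, so all these sums are lower limits. Mir34a, a target of p53, had 3379 CPM in replicate 2 and 2912 CPM in replicate 1. The growth-promoting list of genes from the miR-17-92, miR-106b-25 and miR-221/222 clusters had 9 of 11 detected, with a summed level of 6905 CPM in replicate 2 and 8645 CPM in replicate 1, a lower limit too, since 2 of its genes have such copies. By Fisher's exact test 9 growth-restraining genes were higher in replicate 2 and 2 lower, and 0 growth-promoting genes were higher and 7 of 10 tested lower, beside 77 higher and 162 lower of all 455 genes, or 52.5% called, and 83.6% called among the deeper genes. With TMM and with DESeq2 size factors these counts were 11 higher and 2 lower, and 1 higher and 6 lower. In the both-strand column 5 of 11 growth-restraining genes tested were higher and 3 lower, and edgeR's exact test called 0 in each list. That test did call the unlisted Mir26a-2 (adjusted p = 0.000804), with 349 CPM in replicate 2 and 29.7 CPM in replicate 1. These Mir26a-2 values hold uniquely placed reads only, so its difference with multimapping reads included is unknown.

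Markers of other cells differed between the libraries in both directions. Of all 455 genes tested, 52.5% were called, 77 higher and 162 lower in replicate 2, and 83.6% of the 177 deeper genes were called. Lower calls were thus the more frequent ones among all genes with CPM. Red cell markers had a summed level of 190.5 CPM in replicate 2 and 446 CPM in replicate 1, with 2 of 3 genes called lower in replicate 2 by Fisher's exact test, and leukocyte markers had 854 CPM in replicate 2 and 1147 CPM in replicate 1, with 4 of 4 called lower (2 of 4 under TMM and DESeq2 size factors). Mir126a of endothelium had 41532 CPM in replicate 2 and 56684 CPM in replicate 1 and was called lower, and both kidney markers were called lower as well. Both smooth muscle markers were called lower, 1 of them with TMM, and with DESeq2 size factors 1 was higher and 1 lower. Mir122 of liver was called higher, with 108 CPM in replicate 2 and 78.1 CPM in replicate 1. Of the brown fat markers Mir455 was called higher, with 1330 CPM in replicate 2 and 826 CPM in replicate 1, and Mir193b lower, with 266 CPM in replicate 2 and 578 CPM in replicate 1. edgeR's exact test called 0 genes in every marker list. Their part in the lower Mir15a, Mir497 and Mir322 values of replicate 2 was not tested. In whole tissue, fewer cells of a type and less RNA per cell cannot be told apart.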

How the data were processed

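Small RNA from 2 adrenal gland libraries of 1 group was analysed. For each library the authors deposited raw counts in 3 unnamed columns, whose meaning was read from the values. The mm10 assembly and GENCODE M21 genes were used, per the notes that came with the deposited counts. How reads were trimmed, aligned and counted is not given in the sources used here. Entries that name no gene stayed out of all totals: multimapping reads took 33.6% of the replicate 2 library and 31.6% of the replicate 1 library, unmapped reads 16.5% and 16.1%, and reads on no miRNA gene 4.99% and 5.55% in the same order. The strand column, which was used for all values, has no entry lost to overlap with an opposite-strand gene, whereas the both-strand column set aside 805965 ambiguous reads in replicate 2 and 476126 in replicate 1.

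CPM was computed over miRNA genes. Shares have exact Clopper-Pearson intervals at 95%. With a single group, no contrast of conditions exists, and a two-sided Fisher's exact test with Benjamini-Hochberg adjustment at 0.05 compared the libraries where a gene's reads summed to 10 or more. Log2 ratios, with exact conditional binomial intervals, used an offset of 0.5 counts. Partner shares were tested the same way. Their p-values are adjusted over all 119 neighbouring pairs, a choice made after seeing the data, as was the set of genes with at least 1000 reads. Alternatives were the exact test of edgeR at its common dispersion, TMM and DESeq2 size factors (exact binomial test with scaled totals), no filter, the other columns and another denominator. The common dispersion came from the 2 libraries that the test compares. Named were the members, their overlapping and cluster neighbours, miRNAs with the same seed, the nearest gene in level for each locus, and the fixed lists. The members and lists were chosen with earlier results of these data known. Fisher's exact test per gene and the interval of its ratio were checked on simulated counts. These held counting error only, without the further spread seen between the libraries, and the other tests were not checked this way. The tools were Python 3.11.15 (scipy 1.17.1, pandas 2.3.3, numpy 2.4.6, matplotlib 3.10.9) and R 4.3.3 (DESeq2 1.42.0, edgeR 4.0.16).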

Additional observations from a re-analysis of the deposited data

Results flagged for a closer look

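Mir497b, which no comparison uses, had 1666 reads in replicate 2 and 1960 reads in replicate 1 in the column of the other strand. There were no control samples, and both counts lie above the limit of 3 that a count of 0 allows. They equal the strand-column counts of Mir497, which overlaps Mir497b on the opposite strand.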

How the results depend on the processing

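The family's share of 1.35% was 0.000272% in the column of the other strand and 0.739% with all placed reads as the denominator. It was 1.34% with TMM or DESeq2 size factors and 1.49% with the both-strand column. The both-strand value is not the same quantity, since it lacks the Mir497 reads. Its denominator is also smaller, with 6119201 reads on miRNA genes in replicate 2 and 3159960 in replicate 1. Without replicate 1 the family's share in the strand column was 1.23%, and without replicate 2 it was 1.47%. With the both-strand column the share of Mir497 in its pair was 0, and its difference between the libraries could not be computed. edgeR's exact test called 3 genes and 0 members in place of 239 and 7. The log2 ratio of Mir16-2, -0.03, was 0.12 with TMM and 0.14 with DESeq2 size factors, and did not pass the test in either case (adjusted p = 0.258 and 0.153, exact binomial test). The directions of the other 7 members held under the scalings and with no filter, and the directions of the members that could be computed, all but Mir497, held with the both-strand column. The depth of the libraries limits Mir503 and Mir16-2 most, and 2 libraries leave the spread poorly known. Leaving out a library leaves no ratio between libraries. No paired analysis was possible because there is only 1 group.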
